A study of Mus musculus with 27 samples.

Results

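Hepatic stellate cells (HSCs) of mice that had recovered for 14 d from chronic carbon tetrachloride (CCl4) injury were compared with HSCs of healthy mice, across all genes counted, to describe what had not returned to the healthy level. The comparison used 8 of the 27 libraries of the series, 4 of the chronic 14 d group and 4 of the healthy group, chosen by the group given in the sample titles. All mice were male Balb/c. The recovered mice were 8 to 10 weeks old when a course of 8 intraperitoneal CCl4 injections over 4 weeks began, at 0.5 µL per g of body weight in mineral oil, and their cells were collected 14 d after the last injection. The healthy mice were 10 to 12 weeks old and received no injection, so that age and the oil vehicle differed together with CCl4 and cannot be told apart from it. HSCs were sorted after liver perfusion by the ultraviolet fluorescence of their retinoid droplets, and RNA was extracted without culture and sequenced in bulk. The study treats each repeat as an individual experiment. Libraries collected 24 h and 72 h after the same course (4 each) are given beside the result where the time course of a gene is described.

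HSCs lie between the hepatocytes and the sinusoidal endothelium, where quiescent cells store vitamin A and secrete growth factors for the surrounding cells. After injury they activate, lose retinoid, acquire contractile fibres and deposit a collagen-rich scar. When the injury ends, activated HSCs either die or return towards quiescence, while macrophages that have entered the liver help to break down the scar.

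Levels are in CPM, the counts of a gene relative to the total of its library, after scaling by the trimmed mean of M values (TMM), and the 4 values of a group are listed in the order of replicates 1 to 4. A gene is said to have risen, fallen or been called where edgeR's quasi-likelihood test gave a Benjamini-Hochberg adjusted p below 0.05 over the 18758 genes tested and the change was above 2-fold. Fold changes are on the log2 scale with their standard error. Where no library of a group had more than 3 counts of a gene, the change is a lower bound against 3 counts in each of those libraries.

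The chronic 14 d libraries held 6314801 to 7437315 counts and the healthy ones 10792560 to 12596066. Depth class and group therefore coincide and cannot be told apart within these 8 libraries. The chronic 24 h and 72 h groups each held 2 libraries of lower and 2 of higher depth, and a fit with depth class as a term rests on those groups. At 24 h summed macrophage markers stood at 4203 to 5606 CPM in the lower-depth and 1012 to 1891 CPM in the higher-depth libraries. At 72 h the classes overlapped, at 2641 to 3640 CPM and 1380 to 3028 CPM. Mitochondrial transcripts took 1.18 to 1.76% of counts in chronic 14 d and 0.754 to 1.21% in healthy libraries. Healthy replicate 4 stood apart, with the fewest genes detected (18807) and the highest hepatocyte marker sum of its group. The label was checked against 16 HSC identity markers, which summed to 32447 to 51517 CPM in healthy and 25774 to 33764 CPM in chronic 14 d libraries, so both groups carried the HSC signature at a high level. In bulk RNA, fewer cells of a type and less RNA per cell cannot be told apart.

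After 14 d of recovery, 854 genes were higher and 219 lower than in healthy HSCs, or 5.72% of the genes tested (4.55% higher and 1.17% lower). The groups did not overlap in 722 of the higher and 171 of the lower genes, where 6.94% of all genes tested lay fully above and 6.39% fully below the healthy libraries. Of the called genes 79.6% were higher. Without TMM, on library size, the median fold change over all genes moved by 0.174, and 1101 genes were higher and 107 lower (91.1% higher), so directions are stated relative to TMM scaling. Among the genes named here, Rgs5, Colec11, Vipr1, Plod1, Ccn4, Nr2f1 and 9630050E16Rik were not called under that scaling, and Timp1, Timp3 and C4a were. With depth class as a term, 426 genes were higher and 321 lower, and 313 of the 854 and 106 of the 219 were still called. With single libraries left out the number of lower genes was 106 without chronic 14 d replicate 3, 132 without chronic 14 d replicate 4, 118 without healthy replicate 2 and 437 without healthy replicate 4. In the same fit 2095 genes were higher and 1522 lower than healthy at 24 h after the last injection (11.2% and 8.11%), and 1479 were higher and 788 lower at 72 h (7.88% and 4.20%), comparisons that share the healthy libraries. Set directly against 24 h, 1247 genes were higher and 1147 lower at 14 d (6.65% and 6.11%).

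**Figure D1:**
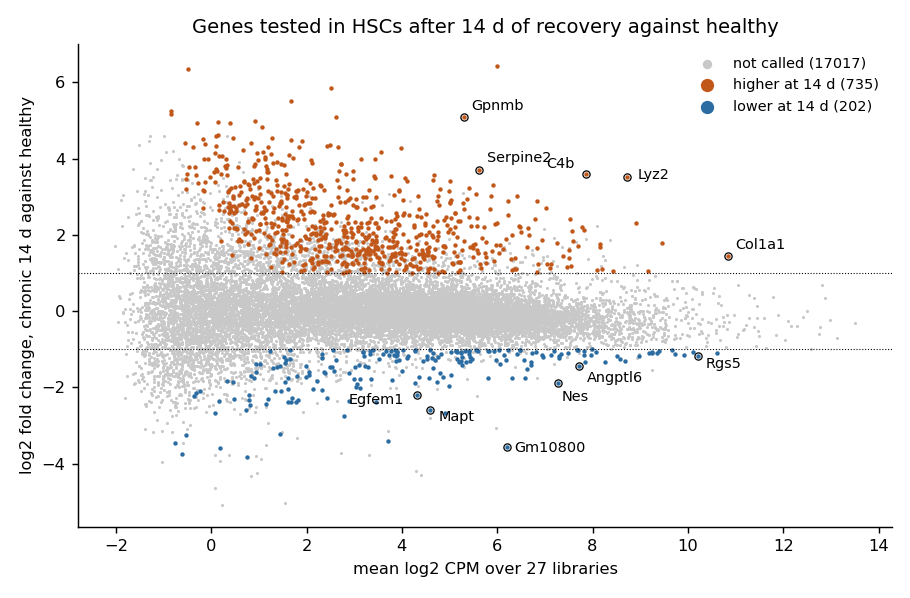
Log2 fold change of chronic 14 d against healthy libraries (vertical axis) by mean log2 CPM over the 27 libraries (horizontal axis), 1 point per gene, for 17954 of the 18758 genes tested. The 804 genes with 3 counts or fewer in every library of a group were not drawn. Genes called higher (735) or lower (202) are coloured and the circled genes are named in the text. Called genes spread further upward than downward, and most points lie near 0.

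The 12 highest of the genes that met the naming rule (called, without overlap of the groups, and with log2 CPM averaging 3 or more) included genes of macrophages (Gpnmb, Mmp12, Lyz1 and Lyz2), an immunoglobulin gene (Ighm), acute-phase and anti-inflammatory genes (Saa1, Il1rn), a complement component (C4b), genes of matrix and its turnover (Col4a5, Serpine2), the calcium-binding S100a6 and the irisin precursor Fndc5. The 12 lowest began with the gene models Gm10800, Gm10801 and Gm42679, followed by Mapt and Sectm1a. The others were Egfem1, Dhh, Ntm, Igsf21, Nes, the gene model 9630050E16Rik and Pcdhgc4, a clustered protocadherin.

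C4b, which encodes the mouse complement component C4, stood at 37.6, 61.0, 118 and 61.2 CPM in healthy and 974, 762, 1002 and 633 CPM in chronic 14 d libraries. It was higher in every recovered library than in any healthy one (3.60 ± 0.32, adjusted p 4.2e-07), and its mean at 24 h was 797 CPM. C4b shares sequence with C4a, and reads of these neighbours are not always separable. C4a was not called (2.90, adjusted p 0.051) and stood at 33.5 CPM in healthy replicate 4, without which it was called (4.32, adjusted p 0.0072). Serpine2, a secreted inhibitor of thrombin and plasmin, stood at 4.07, 5.26, 8.08 and 4.93 CPM in healthy and 69.7, 70.6, 86.1 and 66.5 CPM in chronic 14 d libraries (3.71 ± 0.55, adjusted p 0.00016). The 4 recovered libraries were close to each other and far above all healthy ones. Fndc5, which encodes the precursor of irisin, rose from 2.72, 6.53, 5.89 and 1.21 CPM to 43.7, 52.0, 64.0 and 24.9 CPM (3.50 ± 0.40, adjusted p 8.7e-06). Col4a5, a basement membrane collagen chain, stood at 0 to 1.94 CPM in healthy and 9.58 to 26.8 CPM in chronic 14 d libraries (3.98 ± 0.64, adjusted p 0.00035). These 4 genes kept their call without any single library and with depth class as a term.

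Gpnmb, a glycoprotein of lipid-laden and scar-associated macrophages, stood at 0, 1.46, 1.60 and 1.90 CPM in healthy and 37.9, 76.6, 32.8 and 22.9 CPM in chronic 14 d libraries (5.08 ± 0.91, adjusted p 0.0011). Its mean at 24 h was 418 CPM, and with depth class as a term its fold change was 4.07 and the call was lost (adjusted p 0.059). S100a6, a calcium-binding protein, stood at 10.3 to 15.0 CPM in every recovered library (4.27 ± 0.71, adjusted p 0.00053). Il1rn, the interleukin-1 receptor antagonist, stood at 0.0905, 1.46, 0.337 and 1.47 CPM in healthy and 6.47, 17.7, 12.5 and 17.0 CPM in chronic 14 d libraries (3.99 ± 0.71, adjusted p 0.00098). Both genes had no overlap between the groups. Saa1, an acute-phase protein, was higher in all 4 recovered libraries (16.4 to 64.1 CPM against 0.996 to 6.58 CPM; 3.54 ± 1.01, adjusted p 0.031). The call was lost on leaving out healthy replicate 1 (3.24, adjusted p 0.088), healthy replicate 2 (3.56, adjusted p 0.080), healthy replicate 3 (3.33, adjusted p 0.090) or chronic 14 d replicate 2 (3.12, adjusted p 0.085), and with depth class as a term its fold change was 0.83.

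Mapt, the microtubule-associated protein tau, stood at 250, 274, 186 and 118 CPM in healthy and 39.5, 30.0, 31.6 and 36.4 CPM in chronic 14 d libraries (-2.59 ± 0.38, adjusted p 0.00015). Every recovered library lay well below the lowest healthy one, while the means at 24 h and 72 h were lower again, at 7.23 and 15.3 CPM. Egfem1, which encodes an EGF-like protein, stood at 124 to 150 CPM in healthy and 21.1 to 37.3 CPM in chronic 14 d libraries (-2.20 ± 0.25, adjusted p 8.1e-06), with a mean of 3.44 CPM at 24 h. Dhh, the ligand desert hedgehog, fell from 41.3, 31.0, 36.7 and 38.3 CPM to 8.77, 9.20, 6.97 and 11.4 CPM (-2.02 ± 0.31, adjusted p 0.00023). Sectm1a, which encodes a secreted and transmembrane protein, stood at 22.6 to 41.8 CPM in healthy and 4.08 to 9.31 CPM in chronic 14 d libraries (-2.38 ± 0.48, adjusted p 0.0026).

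Gm10800 and Gm10801 are neighbours on chromosome 2 that share reads, and their counts are uncertain. Gm10800 varied from 166 to 1714 CPM among healthy libraries and stood at 19.8 to 108 CPM in chronic 14 d libraries (-3.56 ± 1.00, adjusted p 0.028). Its call did not hold without healthy replicate 2 (-2.74, adjusted p 0.11), chronic 14 d replicate 3 (-3.30, adjusted p 0.092) or chronic 14 d replicate 4 (-3.20, adjusted p 0.079), nor with depth class as a term (adjusted p 0.094). Gm10801 (-3.41, adjusted p 0.027) lost its call without healthy replicate 2 (-2.63), chronic 14 d replicate 2 (-3.70), 3 (-3.20) or 4 (-3.05), and with depth class as a term (adjusted p 0.091). 9630050E16Rik (-1.88, adjusted p 0.047) kept its call only when healthy replicate 4 was the library left out, with values from -1.93 to -1.74 without each of the others. Gm42679 (-2.66, adjusted p 0.013) lost its call without chronic 14 d replicate 3 (-2.42, adjusted p 0.059).

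**Figure D2:**
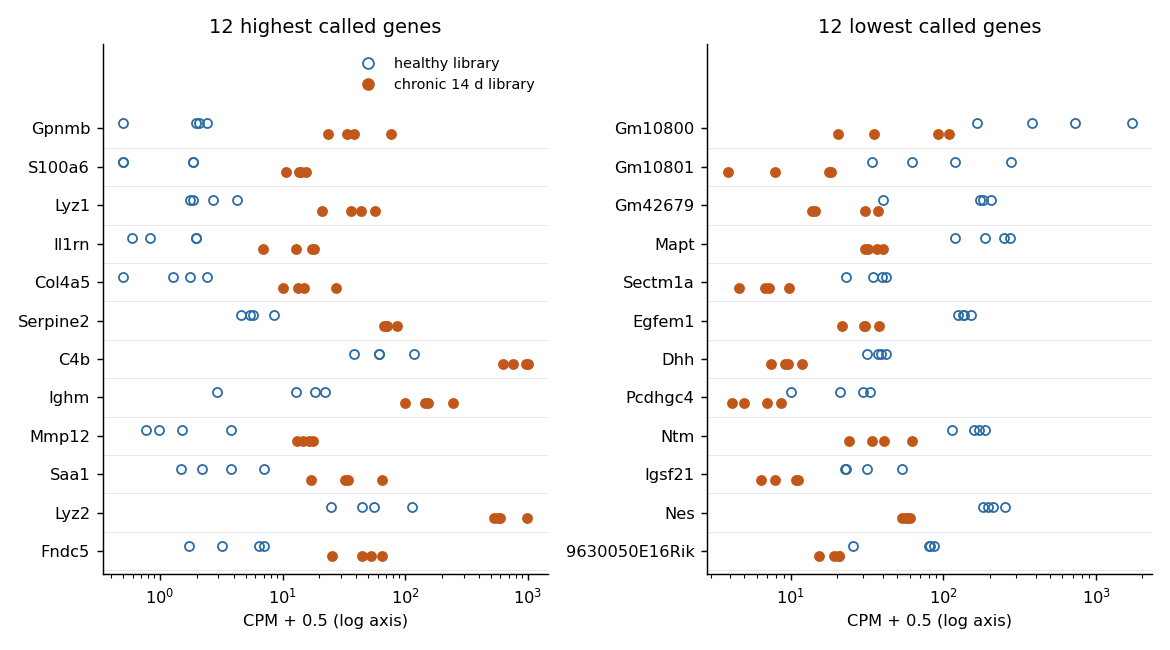
CPM + 0.5 on a log axis of the 12 highest and the 12 lowest genes of the naming rule, with 1 open circle per healthy and 1 filled circle per chronic 14 d library. No gene shows overlap between the groups, by the rule. Healthy libraries spread from 166 to 1714 CPM for Gm10800.

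Promoters of the called genes were read from RefSeq (GRCm38.p6) as the 250 bases before the annotated start, and 614 of the 854 higher and 129 of the 219 lower genes had such a window by symbol. The core GAGGAAG, bound by the myeloid factor PU.1, was searched on both strands and was present in 15.0% of windows of higher genes, 11.6% of those of lower genes, 10.7% of those of all genes tested and 10.2% of all promoters. The AP-1 site TGAGTCA was present in 6.19% of higher, 0.775% of lower, 3.17% of tested and 4.14% of all windows. The letters TATAAA of a TATA box were present in 11.6% of higher, 7.75% of lower, 7.09% of tested and 12.2% of all windows. The E-box TCACGTG of the MiT/TFE family, whose members drive lysosomal genes, was present in 3.58% of higher, 3.88% of lower, 4.74% of tested and 3.51% of all windows. A match is a description of the letters, not evidence of binding.

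The 6 windows are shown because 4 of them belong to immune or matrix genes that were higher after recovery and carry a motif, and 2 to genes that were lower after recovery and carry none of the 4. They run 5′ to 3′ on the strand of the gene and end at the base before the start site, and capitals mark these motifs or their reverse complements. Mmp12 (chr9:7344147-7344396, plus strand) holds GAGGAAG on the reverse strand 87 bases upstream. Itgam (chr7:128062390-128062639, plus strand) holds it on the strand of the gene 84 bases upstream. Spp1 (chr5:104434861-104435110, plus strand) holds GAGGAAG 113 bases and TATAAA 211 bases upstream. Il1rn (chr2:24336610-24336859, plus strand) holds TGAGTCA 141 bases upstream. Dhh (chr15:98898541-98898790, minus strand) and Nes (chr3:87970843-87971092, plus strand) hold none of them. The 6 windows were picked by direction and motif together, so they do not show that motifs follow direction. The lower genes Ackr4 and Plod1 hold TATAAA or its reverse complement, and the higher genes Gpnmb and Lyz2 hold none of the 4 motifs.
Mmp12: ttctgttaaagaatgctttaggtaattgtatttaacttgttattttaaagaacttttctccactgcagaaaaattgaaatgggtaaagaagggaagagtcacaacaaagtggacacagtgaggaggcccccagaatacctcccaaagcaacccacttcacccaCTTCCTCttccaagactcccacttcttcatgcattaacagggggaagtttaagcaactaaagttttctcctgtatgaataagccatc
Itgam: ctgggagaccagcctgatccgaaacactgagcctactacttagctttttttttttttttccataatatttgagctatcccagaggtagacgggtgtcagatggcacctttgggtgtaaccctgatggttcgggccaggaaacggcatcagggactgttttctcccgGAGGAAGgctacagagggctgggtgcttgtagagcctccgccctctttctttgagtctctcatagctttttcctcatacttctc
Spp1: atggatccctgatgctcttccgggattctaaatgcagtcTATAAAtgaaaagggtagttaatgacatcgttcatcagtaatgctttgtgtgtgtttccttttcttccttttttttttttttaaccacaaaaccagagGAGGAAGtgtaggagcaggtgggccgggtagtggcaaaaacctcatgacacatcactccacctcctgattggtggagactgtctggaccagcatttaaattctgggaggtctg
Il1rn: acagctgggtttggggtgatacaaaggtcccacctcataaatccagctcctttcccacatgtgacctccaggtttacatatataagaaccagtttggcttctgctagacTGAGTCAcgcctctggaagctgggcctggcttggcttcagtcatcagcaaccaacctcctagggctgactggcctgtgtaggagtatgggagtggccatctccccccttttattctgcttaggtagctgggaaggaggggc
Dhh: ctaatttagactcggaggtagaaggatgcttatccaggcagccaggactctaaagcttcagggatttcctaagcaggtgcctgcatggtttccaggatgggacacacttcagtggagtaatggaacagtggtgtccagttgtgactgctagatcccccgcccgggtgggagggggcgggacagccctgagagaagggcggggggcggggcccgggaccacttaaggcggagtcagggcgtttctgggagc
Nes: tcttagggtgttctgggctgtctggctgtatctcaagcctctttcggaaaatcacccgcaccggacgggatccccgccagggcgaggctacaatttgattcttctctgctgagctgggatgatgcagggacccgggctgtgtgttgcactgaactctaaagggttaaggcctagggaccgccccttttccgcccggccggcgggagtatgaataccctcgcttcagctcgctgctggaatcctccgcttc

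The HSC identity genes remained detected, and 3 of 16 were lower and 0 higher than in healthy libraries, with a list median of -0.65 against -0.029 over all genes tested. In 7 of the 16 all recovered libraries lay below all healthy ones, as in 6.39% of all genes tested. At 24 h after the last injection, 10 of the same 16 were lower and 1 higher. Rgs5, a regulator of G-protein signalling in pericytes, stood at 3514, 3080, 3401 and 3003 CPM in healthy and 1407, 1262, 1287 and 1809 CPM in chronic 14 d libraries (-1.17 ± 0.25, adjusted p 0.0038). Colec11, a collectin secreted by HSCs, stood at 3477, 3538, 3535 and 2594 CPM in healthy and 1853, 1579, 1200 and 1587 CPM in chronic 14 d libraries (-1.08 ± 0.23, adjusted p 0.0043). The groups of both genes did not overlap. Rgs5 lost its call with depth class as a term (-1.17, adjusted p 0.058), and Colec11 changed by less than 2-fold without chronic 14 d replicate 3 (-0.93). Hhip, an inhibitor of hedgehog ligands, fell from 108 to 152 CPM to 29.8 to 52.5 CPM (-1.67 ± 0.42, adjusted p 0.015), with an adjusted p of 0.054 without chronic 14 d replicate 2 (-1.56).

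Other identity genes were not called. Ecm1, a secreted restrainer of latent TGF-beta, stood at 9702, 6579, 6777 and 13730 CPM in healthy and 6326, 3389, 4313 and 4607 CPM in chronic 14 d libraries (-0.98, adjusted p 0.050). The groups did not overlap, and leaving out healthy replicate 2 (-1.11) or 3 (-1.10), or chronic 14 d replicate 1 (-1.16), gave a call, as did a fit with depth class as a term (-1.65, adjusted p 0.020). Lrat, which esterifies retinol for storage, overlapped between the groups at 821 to 2627 CPM in healthy and 664 to 1578 CPM in chronic 14 d libraries. Pdgfrb, the PDGF receptor, stood at 865 to 1261 CPM and 822 to 1212 CPM, so that no difference was detectable. Ngfr, the p75 neurotrophin receptor, stood at 241, 256, 243 and 178 CPM in healthy and 148, 104, 145 and 155 CPM in chronic 14 d libraries without overlap, and it was not called (-0.73, adjusted p 0.28). Its mean at 24 h was 30.9 CPM.

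Neural-type and quiescence markers held the largest share of lower genes among the lists, with 5 of 15 tested members lower and 2 higher (median -0.17). The 5 and the 2 were also called without any single library and with depth class as a term. Their summed level was 4663 to 5719 CPM in healthy and 2310 to 3120 CPM in chronic 14 d libraries. Ntm, the adhesion molecule neurotrimin, stood at 112, 171, 186 and 157 CPM in healthy and 40.5, 33.8, 23.8 and 61.5 CPM in chronic 14 d libraries (-1.97 ± 0.26, adjusted p 3.0e-05). Gfap, an intermediate filament of quiescent HSCs and astrocytes, stood at 54.6, 50.1, 64.1 and 37.4 CPM in healthy and 20.8, 16.8, 24.7 and 24.8 CPM in chronic 14 d libraries (-1.24 ± 0.23, adjusted p 0.0013). Both lay between the low means at 24 h (6.51 CPM for Ntm and 5.87 CPM for Gfap) and the healthy level, with no overlap between the groups. Vipr1, the receptor for vasoactive intestinal peptide, fell from 3579 to 4218 CPM to 1469 to 2322 CPM (-1.15 ± 0.26, adjusted p 0.0068). Nes, which encodes the filament nestin, took another course: its mean was 307 CPM at 24 h, 66.9 CPM at 72 h and between 53.1 and 60.3 CPM at 14 d, below the healthy 182 to 252 CPM (-1.89 ± 0.25, adjusted p 3.3e-05). Ncam1, the neural cell adhesion molecule, rose from 13.5, 13.9, 22.7 and 7.10 CPM to 76.3, 59.8, 84.7 and 47.0 CPM (2.22 ± 0.38, adjusted p 0.00061). Bdnf, a neurotrophin, rose from 2.78 to 6.82 CPM to 10.3 to 20.4 CPM (1.71 ± 0.35, adjusted p 0.0029), with a mean of 94.0 CPM at 24 h.

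Secreted factors of quiescent HSCs gave 4 lower and 1 higher of 24 (median -0.51), where 15 had been lower at 24 h. Angptl6, an angiopoietin-like factor, stood at 1494, 1270, 1754 and 1046 CPM in healthy and 589, 535, 431 and 487 CPM in chronic 14 d libraries (-1.45 ± 0.33, adjusted p 0.0073), above its 24 h mean of 35.6 CPM. Pcsk6, a proprotein convertase, stood at 190, 212, 252 and 196 CPM in healthy and 55.8, 71.9, 74.4 and 53.6 CPM in chronic 14 d libraries (-1.73 ± 0.31, adjusted p 0.00086), above its 24 h mean of 6.63 CPM. In both genes every recovered library lay below every healthy one. Gdf2, the ligand BMP9, passed the adjusted p but not the fold minimum, at 3295 to 3998 CPM in healthy and 2076 to 2415 CPM in chronic 14 d libraries (-0.69, adjusted p 0.022), and it was called with depth class as a term (-1.16). Rspo3, a Wnt enhancer, also passed the adjusted p but not the fold minimum, at 523 to 619 CPM and 262 to 421 CPM (-0.65, adjusted p 0.010). Unlike Gdf2, it gained no call with depth class as a term. Cxcl12, the chemokine that retains blood progenitors, overlapped at 6081 to 8637 CPM and 6686 to 10112 CPM.

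Transcription factors of the HSC lineage summed to 6361 to 6806 CPM in healthy and 5326 to 5553 CPM in chronic 14 d libraries. They were mostly not called, with 3 higher and 1 lower of 23 (median -0.23). The lower one was Nr2f1, an orphan nuclear receptor (-1.03 ± 0.31, adjusted p 0.038), which was called in 2 of the 8 fits that left out a single library (-1.25 to -0.80) and not under library size scaling (-0.86). Wt1, a factor of the septum transversum lineage and of mesothelium, stood at 4.62, 6.33, 2.86 and 2.60 CPM in healthy and 33.7, 37.7, 49.4 and 29.9 CPM in chronic 14 d libraries (3.20 ± 0.30, adjusted p 8.6e-07). Prrx1, a mesenchymal homeobox factor, rose from 1.72 to 4.50 CPM to 8.36 to 16 CPM (2.21 ± 0.37, adjusted p 0.00059). Sox9, a factor of cholangiocytes and of matrix-producing cells, rose from 4.07, 19.6, 13.8 and 11.5 CPM to 38.6, 51.8, 57.3 and 51.8 CPM (2.03 ± 0.38, adjusted p 0.0014). The 3 genes had no overlap between the groups and kept their call without any single library and with depth class as a term. Among 22 retinoid genes 4 were higher and 0 lower, which became 0 without chronic 14 d replicate 2, 1 without healthy replicate 2, and 2 without healthy replicate 1 or chronic 14 d replicate 3. Cyp26a1, a retinoic acid hydroxylase, reached 16.6 CPM in chronic 14 d replicate 2 and 0.880 to 2.40 CPM in the other recovered libraries, and without that replicate its adjusted p was 0.10 (2.75 in place of 4.31). With depth class as a term it was 0.063.

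**Figure D3:**
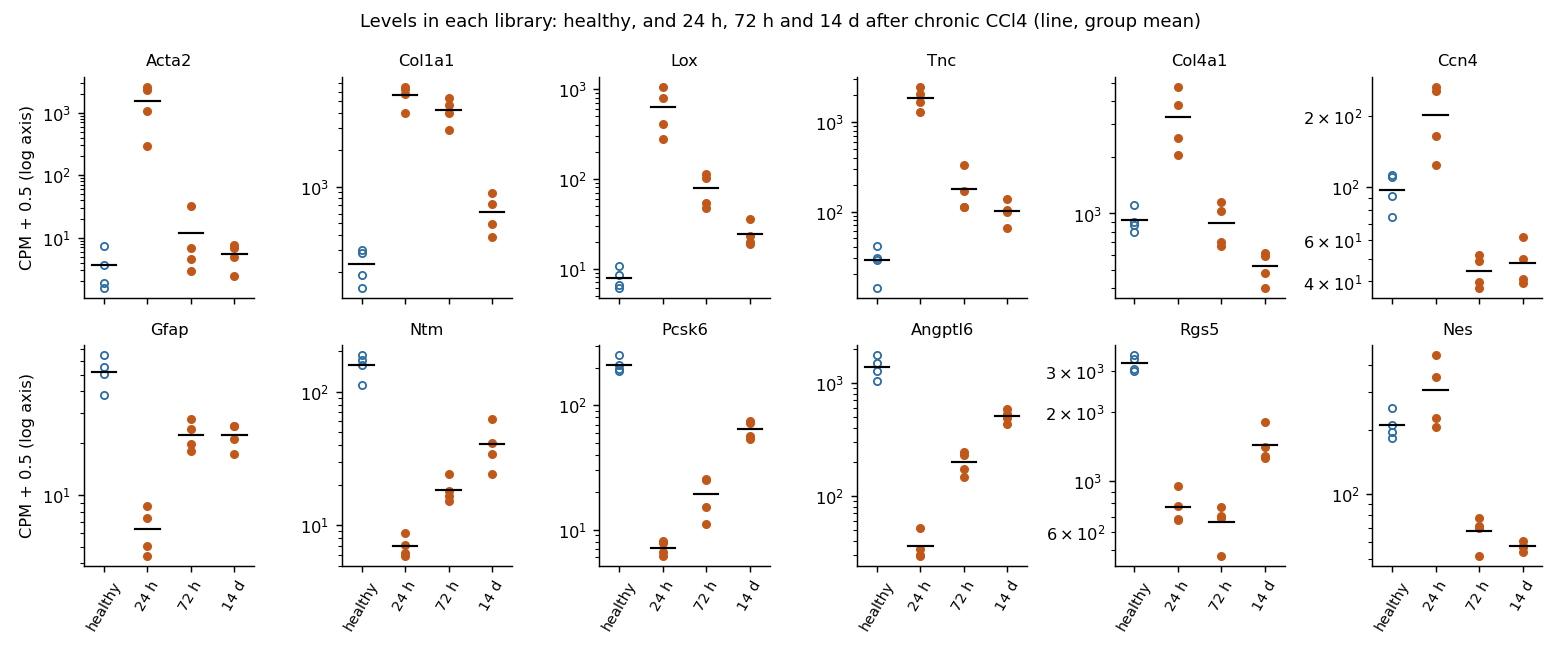
CPM of 12 genes in the healthy, chronic 24 h, chronic 72 h and chronic 14 d groups, 1 point per library and a line through the group means, on a log axis. At 14 d Acta2 overlapped the healthy range, Col1a1, Lox and Tnc lay above it, and Ntm, Gfap, Angptl6, Pcsk6, Rgs5 and Nes lay below it. The 24 h mean of Nes was above the healthy mean.

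Of 18 contractile genes of activated HSCs, 1 was higher and 1 lower after recovery (median -0.45), where 12 had been higher at 24 h. The shares at 14 d were 5.56% in each direction, against 4.55% higher and 1.17% lower over all genes tested. Acta2, the alpha smooth muscle actin that marks activated HSCs, stood at 1.09, 1.36, 3.11 and 6.92 CPM in healthy and 4.45, 6.31, 7.21 and 1.91 CPM in chronic 14 d libraries, with overlapping groups (adjusted p 0.66), against a mean of 1543 CPM at 24 h. Tagln, an actin-binding protein of smooth muscle, stood at 97.1 to 190 CPM in healthy and 82.4 to 136 CPM in chronic 14 d libraries. Smtn, a smooth muscle cytoskeletal protein, fell from 431, 474, 552 and 381 CPM to 178, 152, 170 and 226 CPM (-1.34 ± 0.21, adjusted p 0.00031). Synpo2, an actin-bundling protein, rose from 5.98, 8.77, 8.92 and 10.6 CPM to 16.6, 14.7, 27.4 and 32.6 CPM (1.41 ± 0.26, adjusted p 0.0013). Proliferation genes gave 0 higher and 0 lower of 24 (median -0.53; 1 lower without healthy replicate 4), and p53 targets and cell cycle inhibitors gave 0 and 0 of 15. The proliferation sum was nevertheless 169 to 345 CPM in chronic 14 d and 413 to 548 CPM in healthy libraries. Of 11 tubulins, the subunits of microtubules, Tuba1c was higher and 0 were lower (median -0.54). The tubulin sum went the other way, at 1094 to 1515 CPM in chronic 14 d and 1716.5 to 1862 CPM in healthy libraries.

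Of 13 fibrillar and fibril-associated chains 2 were higher and 0 lower (median 0.23), and 1 was lower without healthy replicate 4 or without chronic 14 d replicate 4. Col1a1, the alpha 1 chain of collagen I, stood at 187, 282, 304 and 148 CPM in healthy and 724, 490, 890 and 387 CPM in chronic 14 d libraries (1.44 ± 0.34, adjusted p 0.0096), against a mean of 5641 CPM at 24 h. All recovered libraries lay above all healthy ones. Col12a1, a fibril-associated collagen, rose from 1.56 to 3.51 CPM to 9.98 to 17.2 CPM (2.24 ± 0.41, adjusted p 0.0011). Col3a1, the chain of collagen III, stood at 2674, 2741, 2616 and 2576 CPM and 4194, 3432, 4940 and 4380 CPM without overlap, but it was not called (0.68, adjusted p 0.090). Col1a2, the other chain of collagen I, overlapped between the groups at 867 to 1195 CPM and 1157 to 1544 CPM (adjusted p 0.46).

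Of 16 network and basement membrane collagens 4 were higher and 0 lower (median 0.72). Col15a1, a multiplexin of vascular basement membranes, stood at 1.18, 1.95, 3.20 and 1.21 CPM in healthy and 17.0, 17.1, 27.3 and 19.8 CPM in chronic 14 d libraries (3.42 ± 0.39, adjusted p 9.2e-06). Col8a2, a short-chain network collagen, rose from 9.51 to 19.6 CPM to 28 to 48.6 CPM (1.43 ± 0.33, adjusted p 0.0067), a call that was lost with depth class as a term. The abundant chains of collagen IV moved the other way by less than 2-fold. Col4a1 stood at 871, 1116, 896 and 792 CPM in healthy and 482, 400, 611 and 591 CPM in chronic 14 d libraries (-0.82 ± 0.24, adjusted p 0.036), below the healthy level in every recovered library after a 24 h mean of 3293 CPM. Lamb3, a laminin beta chain, rose from 2.10 to 3.21 CPM to 8.67 to 11.7 CPM (1.96 ± 0.23, adjusted p 9.7e-06). Of 14 laminins and nidogens, the other basement membrane proteins, Lamb3 was higher and Lama1 lower (median -0.16), and 2 were lower without healthy replicate 4. The call of Lama1 was lost with depth class as a term (-1.50, adjusted p 0.069).

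Enzymes that crosslink and hydroxylate collagen gave 1 higher and 2 lower of 22 (median -0.17), where 10 had been higher at 24 h. Lox, which crosslinks collagen, stood at 5.61, 7.89, 5.98 and 10.1 CPM in healthy and 18.1, 19.4, 34.7 and 22.6 CPM in chronic 14 d libraries (1.68 ± 0.44, adjusted p 0.018), against a 24 h mean of 630.3 CPM. The groups did not overlap, but the adjusted p was 0.058 to 0.059 with any of healthy replicates 1 and 3 and chronic 14 d replicate 3 left out. P4ha2, a prolyl hydroxylase subunit, fell from 12.2 to 20.2 CPM to 4.99 to 8.09 CPM (-1.32 ± 0.31, adjusted p 0.0077), a call lost with depth class as a term. Plod1, a lysyl hydroxylase, stood at 240, 322, 297 and 250 CPM in healthy and 169, 137, 130 and 115 CPM in chronic 14 d libraries (-1.01 ± 0.16, adjusted p 0.00026), just past 2-fold. Its change was under 2-fold without healthy replicate 2 (-0.93), healthy replicate 3 (-0.98), chronic 14 d replicate 3 (-0.94) or chronic 14 d replicate 4 (-0.88).

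Matricellular proteins tune how cells meet the matrix. In the list of proteoglycans and matricellular proteins 9 of 31 were higher and 1 lower (median 0.18), and 5 were higher without chronic 14 d replicate 3. Tnc, the glycoprotein tenascin C, stood at 13.6, 30.0, 40.7 and 27.9 CPM in healthy and 98.3, 64.4, 137 and 104 CPM in chronic 14 d libraries (1.85 ± 0.39, adjusted p 0.0037), against a 24 h mean of 1875 CPM. Thbs1, thrombospondin 1, an activator of TGF-beta, stood at 79.5, 113, 66.4 and 133 CPM in healthy and 205, 292, 443 and 413 CPM in chronic 14 d libraries (1.79 ± 0.32, adjusted p 0.00099). Fbln2, a fibulin of elastic fibres, rose from 2.24 to 8.50 CPM to 17.4 to 28.3 CPM (2.36 ± 0.49, adjusted p 0.0036). Mfap4, an elastic fibre protein, rose from 9.96, 10.6, 16.5 and 13.4 CPM to 49.9, 191, 138 and 33.2 CPM (3.03 ± 0.65, adjusted p 0.0045), with a wide spread among the recovered libraries. Spp1, osteopontin, which HSCs, cholangiocytes and macrophages all express, rose from 51.7 to 90.2 CPM to 165 to 308 CPM (1.76 ± 0.42, adjusted p 0.0093). Ccn4, a secreted factor of the CCN family, was lower at 91.0, 112, 110 and 74.3 CPM against 61.4, 40.5, 38.9 and 49.2 CPM (-1.03 ± 0.23, adjusted p 0.0067). Its change was under 2-fold without healthy replicates 2 or 3 or chronic 14 d replicates 2, 3 or 4 (each alone), and its call was lost with depth class as a term.

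Matrix metalloproteinases and their inhibitors gave 7 higher and 0 lower of 16 (median 1.79), and 6 of the 7 were also called with depth class as a term. One member was lower without healthy replicate 1 or without chronic 14 d replicate 1. Mmp19, a stromal metalloproteinase, stood at 1.27, 1.66, 1.94 and 0.692 CPM in healthy and 7.96, 9.20, 10.1 and 6.02 CPM in chronic 14 d libraries (2.58 ± 0.32, adjusted p 2.0e-05). Mmp23 rose from 17.4, 21.9, 23.8 and 11.7 CPM to 92.4, 61.5, 50.9 and 58.5 CPM (1.82 ± 0.26, adjusted p 9.6e-05). Both were higher in every recovered library. Mmp12, the elastase of macrophages, stood at 0.272, 0.487, 1.01 and 3.29 CPM in healthy and 12.5, 17.3, 16 and 14.2 CPM in chronic 14 d libraries (3.54 ± 0.75, adjusted p 0.0043). Mmp9, a gelatinase of neutrophils and macrophages, had 0 counts in all healthy libraries and stood at 5.40, 6.18, 4.93 and 3.96 CPM after recovery, at least 19-fold higher. The inhibitors were not called: Timp3 stood at 162, 231, 300 and 235 CPM and 384, 475, 733 and 565 CPM without overlap (1.22, adjusted p 0.063; called with depth class as a term, 2.61, adjusted p 0.00062), and Timp1 reached 8.63 CPM in chronic 14 d replicate 1 and 0 in replicate 4 (adjusted p 0.061), without which it was called (3.52, adjusted p 0.020). The sum of neutrophil markers, a list that itself holds Mmp9, moved with Mmp9 and that of macrophage markers with Mmp12, and their part in these results was not tested.

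In the TGF-beta and PDGF list 4 of 23 were higher and 1 lower (median 0.16). The list sum was lower, at 5568.5 to 7340 CPM in chronic 14 d and 7512.5 to 8251 CPM in healthy libraries. Ltbp2, a latent TGF-beta binding protein, stood at 2.90, 7.01, 9.93 and 4.67 CPM in healthy and 52.5, 60.5, 98.5 and 31.7 CPM in chronic 14 d libraries (3.31 ± 0.49, adjusted p 0.00017). The ligands Tgfb2 (2.60 to 7.83 CPM against 12.9 to 19.6 CPM; 1.54 ± 0.29, adjusted p 0.0017) and Tgfb3 (27.1 to 45.6 CPM against 76.2 to 105 CPM; 1.23 ± 0.27, adjusted p 0.0047) rose without overlap. In the Wnt and hedgehog list 3 of 22 were higher and 1 lower (median 0.37), and 5 were higher without chronic 14 d replicate 4. Wnt5a, a ligand of the non-canonical pathway, stood at 6.34, 13.1, 10.0 and 4.15 CPM in healthy and 68.0, 59.8, 110 and 59.0 CPM in chronic 14 d libraries (3.14 ± 0.37, adjusted p 1.3e-05), close to its 24 h mean of 84.1 CPM. Dkk3, a secreted modulator of Wnt signalling, rose from 69.3, 78.2, 102 and 90.6 CPM to 269, 277, 311 and 232 CPM (1.68 ± 0.17, adjusted p 3.7e-06). Targets of YAP and TAZ gave 3 higher and 2 lower of 19 (median -0.54), with 1 lower without healthy replicate 4. They summed to 3713 to 5106 CPM in chronic 14 d and 5287 to 7687 CPM in healthy libraries. Integrins and focal adhesion genes gave 2 higher and 1 lower of 21 (median -0.11), and none of these 3 calls held under every omission of a library.

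**Figure D4:**
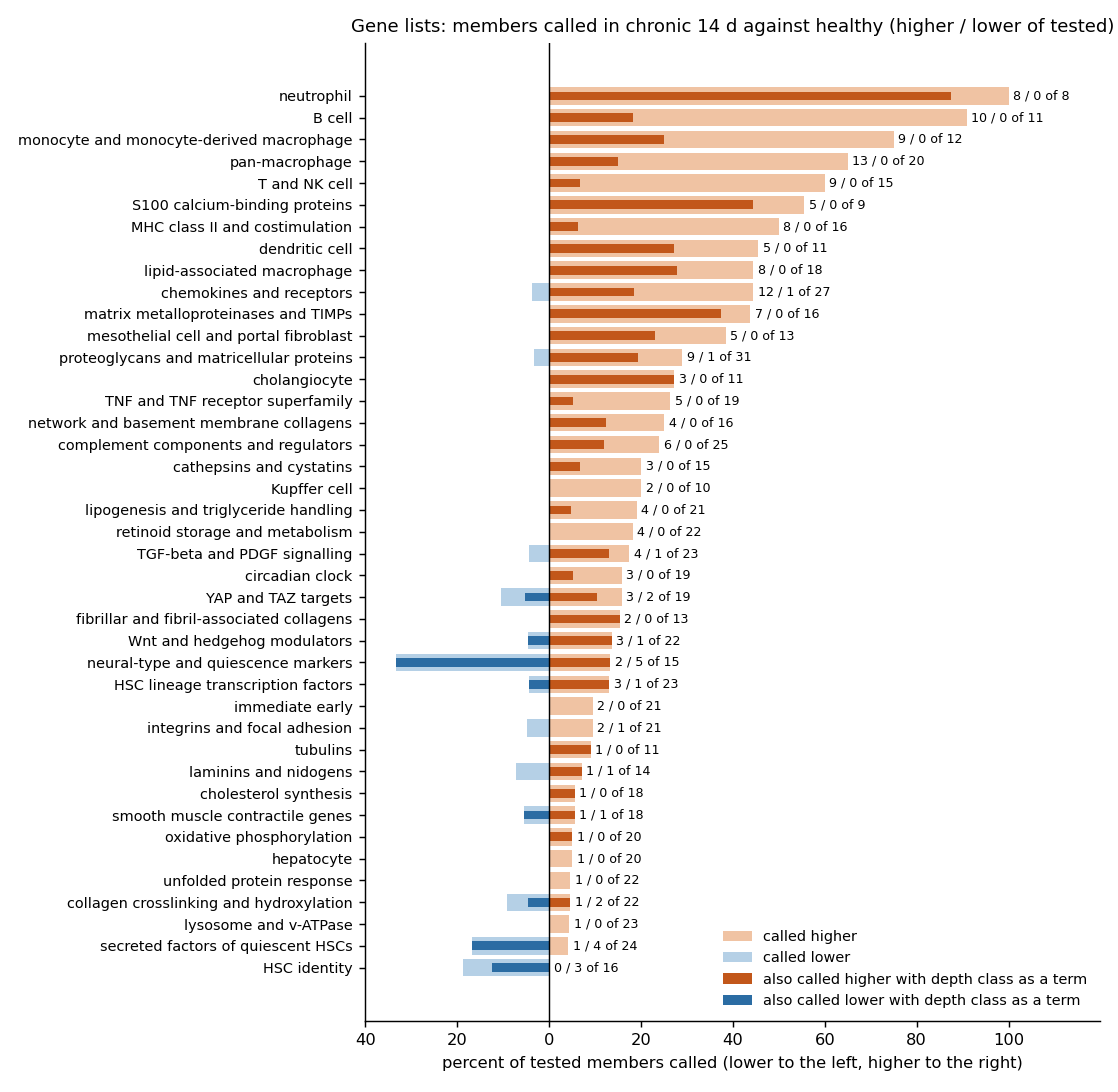
Percent of the tested members of each list called higher (right of 0) or lower (left of 0) in chronic 14 d against healthy libraries, with the inner darker bar for members also called with depth class as a term. Neutrophil, B cell, monocyte and pan-macrophage lists have the longest bars to the right and neural-type and quiescence markers the longest to the left.

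Calls were lost with depth class as a term in several lists whose members are described elsewhere. Over all genes tested 313 of the 854 higher genes were still called, so a count near that share is no trait of its list. Of the higher genes, 5 of 12 chemokines and receptors, 1 of 5 TNF superfamily genes, 3 of 6 complement genes and 1 of 3 cathepsins and cystatins were still called. The same held for 3 of 5 dendritic cell, 3 of 5 mesothelial and portal fibroblast, and 0 of 2 Kupffer cell markers. Among matrix and HSC lists, 2 of 4 network collagens, 6 of 9 proteoglycans and matricellular proteins, 0 of 4 retinoid genes and 0 of 2 integrin and focal adhesion genes were still called. For the circadian clock the count was 1 of 3, for immediate early genes 0 of 2, and for the genes the study names 3 of 5.

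Transcripts of immune cells were higher after recovery than in healthy HSC preparations, and in bulk RNA their cell of origin cannot be told apart. Of 20 pan-macrophage markers 13 were higher and 0 lower, with a median of 1.71, and 3 of the 13 were still called with depth class as a term. Their sum was 174 to 620 CPM in healthy and 1224 to 2476 CPM in chronic 14 d libraries. Ptprc, the leukocyte antigen CD45, stood at 5.52, 4.77, 8.75 and 4.07 CPM in healthy and 34.8, 29.4, 40.2 and 25.7 CPM in chronic 14 d libraries (2.49 ± 0.39, adjusted p 0.00026). Lyz2, the lysozyme of macrophages, stood at 43.9, 24.5, 55.7 and 113 CPM and 536, 988, 577 and 599 CPM (3.51 ± 0.54, adjusted p 0.00022), and it shares reads with Lyz1. The groups of both did not overlap, although with depth class as a term Ptprc was no longer called (1.24, adjusted p 0.064). Itgam, the integrin chain CD11b of monocytes, rose from 0, 0.390, 0.926 and 0 CPM to 2.29, 4.21, 8.89 and 8.22 CPM (4.10 ± 0.69, adjusted p 0.00053) and was also called with depth class as a term. The complement genes C1qa, C1qb and C1qc, which resident and recruited macrophages express, were not called (adjusted p 0.29 to 0.37), and with depth class as a term their fold changes were -0.23, -0.21 and -0.41.

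The summed markers of resident Kupffer cells overlapped, at 1628 to 2240 CPM in healthy and 1616 to 2290 CPM in chronic 14 d libraries. In healthy libraries this sum lay above the pan-macrophage sum of 174 to 620 CPM. Which cells set the Kupffer sum was not tested, so its overlap does not show that Kupffer cells were unchanged. By gene, 2 of 10 were higher and 0 lower (median 0.60), with 1 higher without chronic 14 d replicate 2. The fold change was positive in 8 of the 10, and in 8869 of 18758 genes tested (median -0.029, 4.55% higher). Clec4f, a lectin of Kupffer cells, stood at 80.6, 49, 134 and 217 CPM in healthy and 129, 278, 86.6 and 31.5 CPM in chronic 14 d libraries, with full overlap. Monocyte and monocyte-derived markers gave 9 higher and 0 lower of 12 (median 3.21), and 5 were higher without healthy replicate 2 or healthy replicate 3. Ccr2, the receptor that draws monocytes from the blood, stood at 1.72, 1.07, 1.68 and 5.80 CPM in healthy and 19.96, 17.5, 24.4 and 29.8 CPM in chronic 14 d libraries (3.14 ± 0.46, adjusted p 0.00016). F13a1, a coagulation factor chain of monocytes, had 0 counts in all healthy libraries and stood at 4.05, 3.94, 3.84 and 3.96 CPM after recovery, at least 14.7-fold higher. Both were among the 3 of the 9 still called with depth class as a term.

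Markers of lipid-associated macrophages gave 8 higher and 0 lower of 18 (median 1.79), of which 5 were called with depth class as a term. Trem2, a lipid receptor, had at most 3 counts in each healthy library and stood at 3.64, 12.9, 1.80 and 6.02 CPM after recovery, at least 22.6-fold higher. Cd9, a tetraspanin, rose from 3.80, 2.63, 2.78 and 6.84 CPM to 11.6, 16.7, 12.9 and 20.2 CPM (1.93 ± 0.40, adjusted p 0.0036). Apoe, which HSCs also express at a high level, overlapped at 7135 to 8553 CPM in healthy and 5157 to 16326 CPM in chronic 14 d libraries. Dendritic cell markers gave 5 higher of 11 and 0 lower (median 2.25), with 3 higher without healthy replicate 1 or chronic 14 d replicate 2. Ccr7, a receptor of migrating dendritic cells and lymphocytes, stood at 3.71, 2.92, 2.95 and 4.15 CPM in healthy and 32.9, 23.4, 32.7 and 19.96 CPM in chronic 14 d libraries (2.98 ± 0.37, adjusted p 2.0e-05). Genes of MHC class II presentation and costimulation gave 8 higher and 0 lower of 16 (median 2.21), with 5 higher without healthy replicate 2 and 1 of the 8 called with depth class as a term. At 24 h they summed to 1195 to 1473 CPM in lower-depth and 274 to 515 CPM in higher-depth libraries. At 72 h the sums were 1205 to 1831.5 CPM and 367 to 950 CPM. H2-Aa, a class II chain, stood at 12.4, 9.93, 23.4 and 24.5 CPM in healthy and 181, 185, 117 and 106 CPM in chronic 14 d libraries (3.07 ± 0.52, adjusted p 0.00059), and 1.54 with depth class as a term (adjusted p 0.093).

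Of 11 B cell markers 10 were higher and 0 lower (median 3.57). Their sum was 16.8 to 75 CPM in healthy and 322 to 599 CPM in chronic 14 d libraries, and at 24 h it had been 88.6 to 223 CPM. Igkc, the constant kappa light chain, stood at 7.42, 31.7, 25.2 and 39.99 CPM in healthy and 307, 264, 273 and 139 CPM in chronic 14 d libraries (3.24 ± 0.45, adjusted p 7.9e-05). Ighm, the constant chain of IgM, stood at 2.44, 12.5, 17.9 and 21.6 CPM and 152, 146, 247 and 99.0 CPM (3.57 ± 0.61, adjusted p 0.00065). In both genes every recovered library lay above every healthy one, while the 24 h means were 58.4 and 49.1 CPM. Ighd, the chain of IgD on mature B cells, rose from 0.390 to 2.16 CPM to 10.6 to 20.1 CPM (3.87 ± 0.65, adjusted p 0.00069). With depth class as a term 2 of the 10 (Igkc and Ighd) were still called, and Ighm was not (adjusted p 0.056). In the 72 h group B cell markers summed to 286 to 315 CPM in lower-depth and 112 to 127 CPM in higher-depth libraries, and the part of depth class in the level at 14 d was not tested beyond that term.

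T and NK cell markers gave 9 higher and 0 lower of 15 (median 3.91), with 5 higher without healthy replicate 1 or healthy replicate 2 and 1 of the 9 called with depth class as a term. Their sum was 1.90 to 8.00 CPM in healthy and 38.2 to 75.8 CPM in chronic 14 d libraries. At 72 h it was 34.9 to 45.5 CPM in lower-depth and 9.33 to 17.9 CPM in higher-depth libraries. At 24 h it was 34.1 to 47.3 CPM and 28.4 to 28.9 CPM. Trac, the constant alpha chain of the T cell receptor, stood at 0, 0.292, 1.18 and 0 CPM in healthy and 9.44, 4.47, 4.57 and 4.70 CPM in chronic 14 d libraries (3.91 ± 0.82, adjusted p 0.0038). All 8 neutrophil markers that could be tested were higher, and 4 of the 12 written in the list had too few counts to be tested. S100a9, a subunit of calprotectin, stood at 1.63, 0, 0 and 0 CPM in healthy and 28.6, 23.3, 25.3 and 18.8 CPM in chronic 14 d libraries (5.85 ± 0.84, adjusted p 0.00012). Healthy replicate 1 alone sets the size of this fold, which was 5.43 to 10.99 with single libraries left out, the highest without that replicate, where no healthy count is left and the fitted value is no bound. Its partner S100a8 had 0 counts in all healthy libraries and 6.88, 6.18, 3.84 and 18.2 CPM after recovery, at least 32.6-fold higher, and the granule gene Ngp was at least 37.4-fold higher. Each of the 8 kept its call without any single library, and 7 of the 8 with depth class as a term. A marker tested only because it was high in the recovered libraries had to differ, so the share of 8 in 8 carries no more than the values.

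**Figure D5:**
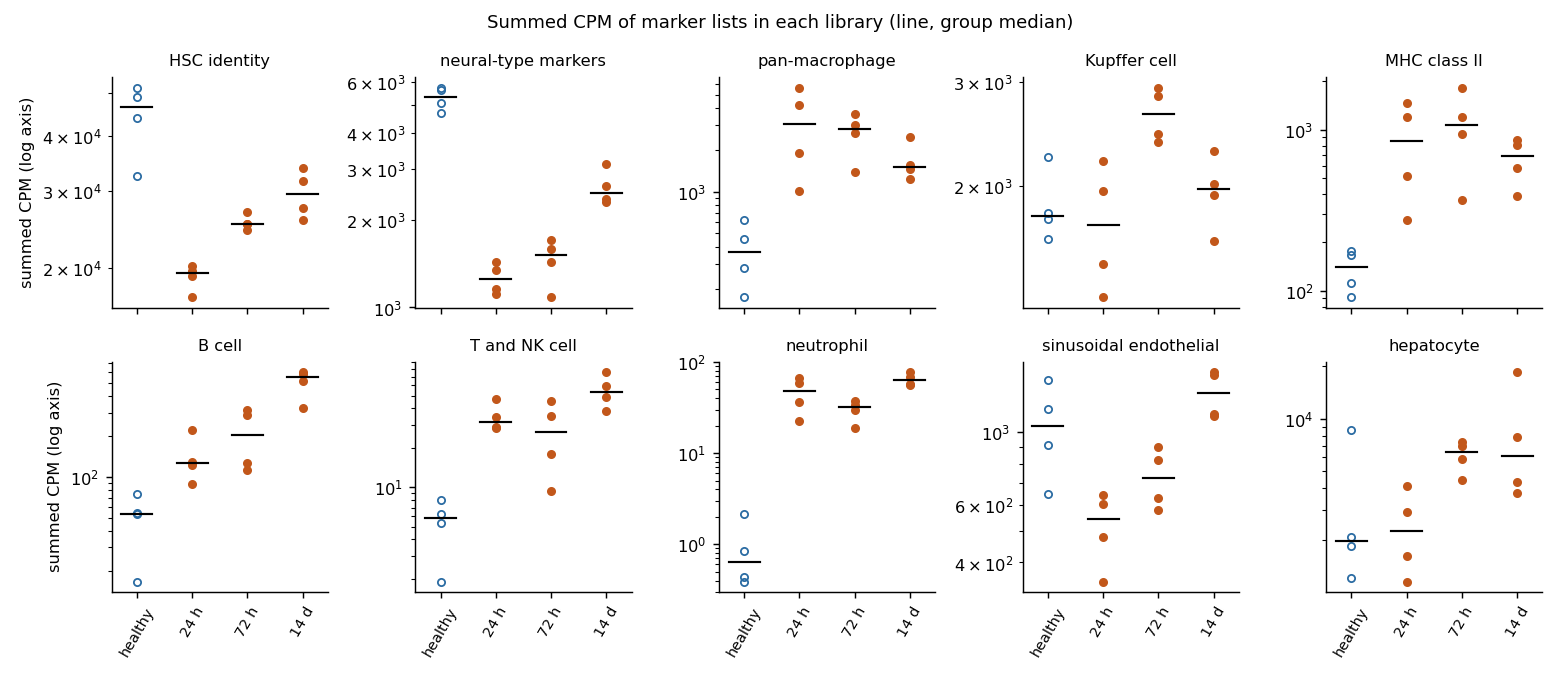
Summed CPM of 10 marker lists in each healthy, chronic 24 h, chronic 72 h and chronic 14 d library, on log axes, 1 point per library and a line at the group median. The Kupffer cell sums of chronic 14 d libraries overlap the healthy range. Their median HSC identity sum (29455 CPM) lies below the lowest healthy sum (32447 CPM), and their highest (33764 CPM) above it. B cell, T and NK cell, neutrophil and MHC class II sums lie above every healthy library.

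Chemokines and their receptors gave 12 higher and 1 lower of 27 (median 1.58), and 7 higher without healthy replicate 2. Ccl4, a chemokine of activated macrophages and lymphocytes, rose from 3.89, 2.05, 6.14 and 7.18 CPM to 19.6, 32.3, 20.5 and 13.9 CPM (2.16 ± 0.43, adjusted p 0.0024). Cxcr4, the receptor of Cxcl12, rose from 1.95 to 2.26 CPM to 9.10 to 12.0 CPM (2.32 ± 0.40, adjusted p 0.00069). Ackr4, a decoy receptor that removes chemokines, fell from 50.8, 43.1, 47.8 and 43.4 CPM to 16.7, 15.4, 9.49 and 12.0 CPM (-1.79 ± 0.41, adjusted p 0.0075), above its 24 h mean of 2.72 CPM. With depth class as a term Ccl4 was called, and Cxcr4 (adjusted p 0.072) and Ackr4 (adjusted p 0.064) were not. Interferon-stimulated genes gave 0 higher and 0 lower of 20 (median -0.17). They summed to 1551 to 1757 CPM in chronic 14 d and 1831 to 2227 CPM in healthy libraries. Genes of the TNF superfamily gave 5 higher and 0 lower of 19 (median 0.65), with 2 higher when healthy replicate 1 or 2 or chronic 14 d replicate 2 was left out and 3 when healthy replicate 3 was. The TNF superfamily sum went the other way, at 1800 to 2632 CPM in chronic 14 d and 2637 to 3689 CPM in healthy libraries.

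Complement genes gave 6 higher and 0 lower of 25 (median 1.16), and 13 higher without healthy replicate 4. C3, the central component, stood at 47.6, 89.1, 112 and 273 CPM in healthy and 517, 881, 617 and 382 CPM in chronic 14 d libraries (2.20 ± 0.47, adjusted p 0.0043), without overlap, and its call was lost with depth class as a term (1.76, adjusted p 0.12). The summed complement list stood at 3738 to 4795 CPM in healthy and 6008 to 8080 CPM in chronic 14 d libraries. Of 9 S100 genes 5 were higher and 0 lower (median 1.58). S100a16 rose from 7.52, 7.50, 10.3 and 14.9 CPM to 34.9, 41.5, 25.6 and 18 CPM (1.58 ± 0.28, adjusted p 0.00083). Cathepsins and cystatins gave 3 higher and 0 lower of 15 (median 0.33). Ctsk, a collagen-degrading cathepsin, stood at 19.6, 19.9, 16.7 and 11.3 CPM in healthy and 41.5, 37.1, 45.7 and 33.0 CPM in chronic 14 d libraries (1.22 ± 0.25, adjusted p 0.0026). S100a16 and Ctsk were called with depth class as a term too. Lysosome and v-ATPase genes gave 1 higher of 23 and 0 lower (median -0.031; 2 higher without healthy replicate 3).

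Of 20 hepatocyte markers 1 was higher and 0 lower (median 1.36), with sums of 1213 to 8588 CPM in healthy and 3741 to 18558 CPM in chronic 14 d libraries. Alb, albumin, stood at 126, 226, 209 and 880 CPM in healthy and 879, 2104, 373 and 309 CPM in chronic 14 d libraries, and healthy replicate 4 and chronic 14 d replicate 2 were the highest of their groups. The number of hepatocyte markers called was 13 when healthy replicate 4 was left out, 4 when chronic 14 d replicate 4 was, and 0 without healthy replicate 1 or 2 or chronic 14 d replicate 1, 2 or 3. The 16 sinusoidal endothelial markers gave 0 higher and 0 lower (median 0.60). Mesothelial and portal fibroblast markers gave 5 higher and 0 lower of 13 (median 1.93), with sums of 84.6 to 110 CPM in healthy and 177 to 426 CPM in chronic 14 d libraries. Cd34, a sialomucin of portal fibroblasts, endothelium and progenitors, rose from 8.96, 12.7, 19 and 18.3 CPM to 69.7, 66.1, 84.1 and 51.5 CPM (2.20 ± 0.40, adjusted p 0.0010), also with depth class as a term. Wt1 and Mfap4, described above, are members of this list, and Sox9 and Spp1 are 2 of the 3 cholangiocyte markers of 11 that were higher. The third was Cd24a, a surface sialoglycoprotein, at 0.996 to 3.11 CPM in healthy and 6.61 to 12.2 CPM in chronic 14 d libraries (2.17 ± 0.36, adjusted p 0.00047). The part of these cell types in the changes of the matrix and transcription factor lists was not tested.

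Counts in the lists of metabolism and stress are to be read against 4.55% higher and 1.17% lower over all genes tested. The 1 higher gene each of cholesterol synthesis, oxidative phosphorylation and the unfolded protein response was near that share. The lipogenesis and immediate early lists lay above it in the main fit, though both counts fell when single libraries were left out. Lipogenesis and triglyceride genes gave 4 higher and 0 lower of 21 (median 0.32), with 1 higher when chronic 14 d replicate 2 was left out and 2 when healthy replicate 1 or 2 was. Scd1, the stearoyl-CoA desaturase, stood at 17.8, 34.4, 67.8 and 41.1 CPM in healthy and 96.0, 228, 160.5 and 189 CPM in chronic 14 d libraries (2.06 ± 0.48, adjusted p 0.0076), without overlap. It was the 1 of the 4 still called with depth class as a term. Cytosolic ribosomal proteins gave 0 higher and 0 lower of 28 (median 0.21), where 12 had been higher at 24 h. Targets of NRF2 gave 0 and 0 of 18 (median 0.051; 2 higher without healthy replicate 4), and the unfolded protein response 1 higher of 22 (median -0.34), a call that did not hold without healthy replicates 1, 2 or 3 or chronic 14 d replicates 1 or 2. Cholesterol synthesis gave 1 higher of 18 (median 0.23), with 0 when chronic 14 d replicate 2 was left out and 3 when healthy replicate 4 was. Oxidative phosphorylation gave 1 higher of 20 (median 0.17), and 0 without chronic 14 d replicate 2. IGF and IGF-binding genes gave 0 and 0 of 14 (median 0.63). Leaving out healthy replicate 4 gave 2 higher and 1 lower, and leaving out chronic 14 d replicate 2 gave 1 and 1. There was 1 higher without chronic 14 d replicate 1 or 4, and 1 lower without healthy replicate 1. Immediate early genes gave 2 higher and 0 lower of 21 (median -0.51), and 0 higher without healthy replicate 3 or chronic 14 d replicate 3. Their summed level went the other way, at 38489 to 50822 CPM in chronic 14 d and 53936 to 67505 CPM in healthy libraries.

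Circadian genes gave 3 higher and 0 lower of 19 (median 0.27). Dbp, a transcription factor at the output of the clock, stood at 20.3, 4.19, 22.2 and 15.3 CPM in healthy and 101, 92.1, 74.5 and 76.6 CPM in chronic 14 d libraries (2.47 ± 0.72, adjusted p 0.035), without overlap. Its adjusted p was 0.051 to 0.11 without each library except chronic 14 d replicate 4. Arntl, which encodes the activator BMAL1, stood at 30.2, 48.0, 43.3 and 43.4 CPM and 21.9, 13.3, 19.1 and 9.10 CPM, also without overlap, but it was not called (-1.38, adjusted p 0.14). The time of day of collection is not given in the sources used here and was not tested. Without single libraries 0 of the 3 were called for healthy replicates 1 and 2 and chronic 14 d replicates 2 and 3, and 1 for healthy replicate 3 and chronic 14 d replicate 4. The 16 genes that the study names in its text gave 5 higher and 2 lower, with 2 higher without healthy replicate 3 and 3 without healthy replicate 1 or chronic 14 d replicate 3. The study chose these genes on the same samples, so their count is not independent evidence.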

How the data were processed

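Bulk RNA was sequenced from 27 libraries of sorted mouse HSCs in 7 groups, of which 4 chronic 14 d and 4 healthy libraries were compared. The authors deposited unnormalized counts for each Ensembl gene. Per the labels and the study's methods, reads were aligned to GRCm38 with STAR and assembled with StringTie. Versions, strand setting, annotation release and the counting step are not given in the sources used here. Of 53379 genes, 16198 had no count in any library. GENCODE M21 gave symbols for 53274 IDs. All value columns were matched to a library, leaving 0 unmatched.

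The tests used edgeR 4.0.16 (limma 3.58.1, R 4.3.3). Genes passing filterByExpr (18758) were scaled by TMM and fitted over all 27 libraries with a mean per group in a robust quasi-likelihood model, and the contrast was tested with Benjamini-Hochberg adjustment. The procedure was tested on simulated counts. Named genes were the 12 highest and 12 lowest log2 fold changes of called genes whose groups did not overlap and whose log2 CPM averaged 3 or more, members of the gene lists, and genes sharing reads with these. The comparison and the lists were chosen with earlier results of these data known. Lists are described by counts and medians, without a set test.

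The alternatives were DESeq2 size factors, library size alone, no filter, the DESeq2 1.42.0 test, a mean of at least 1 CPM, only the 8 libraries, an adjusted p of 0.1, no fold minimum, glmTreat against 2-fold, the replicate number as a block, depth class (totals below or above 9000000) as a term, thinning to the lowest total, protein-coding genes only, and each library left out. Replicates are separate libraries, and p-values measure the spread between them. Their counts differed by 25.7 to 90.2 times counting variance, so no pair was a repeated library. Totals of 6314801 to 7437315 in chronic 14 d and 10792560 to 12596066 in healthy libraries set the precision, and 3 counts were taken as the floor. Figures were drawn with matplotlib 3.10.9 in Python 3.11.15. Other data types of the study were not analysed here. A called gene of the TGF-beta list is counted there and not reported here.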

Additional observations from a re-analysis of the deposited data

Results flagged for a closer look

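A library stood far from the other 3 of its group in 21 of 320 groups of values looked at (single genes, list sums and library measures), where chance marks about 1 in 20. In healthy replicate 4 these were 9630050E16Rik (24.9 CPM), C4a (33.5 CPM), Colec11 (2594 CPM), Prrx1 (4.5 CPM), Ccr2 (5.80 CPM), Alb (880.0 CPM), the hepatocyte sum (8588 CPM) and the NRF2 target sum (1772 CPM). In healthy replicate 3 they were Trem2 (0.252 CPM) and the sum of proteoglycans and matricellular proteins (28987 CPM), and in healthy replicate 1 S100a9 (1.63 CPM). In chronic 14 d replicate 2 they were Lyz2 (988 CPM), Pdgfrb (822 CPM), Cyp26a1 (16.6 CPM) and Tagln (136 CPM). In chronic 14 d replicate 3 they were Cxcl12 (10112 CPM), Col12a1 (17.2 CPM) and the sum of metalloproteinases and TIMPs (4021 CPM). In chronic 14 d replicate 1 they were Trac (9.44 CPM) and the dendritic cell sum (318 CPM), and chronic 14 d replicate 4 had the fewest genes detected in its group (19929).

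Of the 24 genes with the highest and lowest fold changes, 12 were called between 24 h and 14 d after the last injection (edgeR, adjusted p 5.4e-08 to 0.031). Over all genes tested 12.8% were called in that contrast. The 24 genes were chosen on the same 14 d libraries, so their count is not independent evidence. The log2 difference of chronic 14 d minus chronic 24 h was -3.30 for Gpnmb, -2.77 for S100a6, -2.24 for Il1rn, -1.71 for Serpine2, -3.0 for Mmp12 and -2.44 for Nes. It was 1.72 for Ighm, 2.25 for Mapt, 3.08 for Egfem1, 1.36 for Dhh, 2.61 for Ntm and 1.41 for Igsf21. Ighm was further from healthy at 14 d (3.57) than at 24 h (1.85), and Nes moved from above the healthy mean (0.55) to below it (-1.89).

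In libraries collected 7 d after a single injection, which none of the comparisons use, the lowest of 4 summed marker levels lay above every healthy library for several cell types. The lowest sum was 5336 CPM for macrophages, 987 CPM for MHC class II and costimulation, 36.3 CPM for T and NK cells, 152 CPM for B cells, 37.3 CPM for neutrophils, 870.0 CPM for cholangiocytes and 252 CPM for mesothelial cells and portal fibroblasts. These libraries were all of higher depth, as were the healthy ones.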

How the results depend on the processing

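The numbers of genes higher and lower (854 and 219) and the share higher (79.6%) moved with several settings. The number higher was 426 with depth class as a term, 251 with glmTreat and 500 in the fit of only the 8 libraries. The number lower was 338 at an adjusted p of 0.1, 12 with glmTreat, 107 with library size alone, 143 without a filter, 655 without a fold minimum and 122 in the fit of only the 8 libraries. The share higher was 57.0% with depth class as a term, 95.4% with glmTreat, 91.1% with library size alone and 59.4% without a fold minimum. Each library left out in turn gave 619 to 1268 higher, 106 to 437 lower and 74.4 to 87.4% higher. By construction glmTreat tests a stricter hypothesis and the fit of the 8 libraries uses fewer samples. The cause of the other shifts was not tested. With healthy replicate 4 and chronic 14 d replicate 2 both left out, an alternative chosen after the data had been seen, 844 genes were higher and 324 lower. DESeq2 with its own test gave 1179 and 255.

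Of the 110 genes named, 8 changed sign in some setting, and none of these was called before or after. With depth class as a term Tagln was 0.76, C1qa -0.23, C1qb -0.21, C1qc -0.41, Clec4f -1.57 and Apoe -0.41. With single libraries left out Apoe ranged from -0.01 to 0.61, Clec4f from -0.54 to 0.58, Cxcl12 from -0.10 to 0.12 and Pdgfrb from -0.02 to 0.18. With healthy replicate 4 and chronic 14 d replicate 2 both left out Clec4f was -0.09. The cause was not tested. Calls were lost by 16 genes with depth class as a term, 42 with glmTreat and 7 with library size alone.

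The replicate number as a block, in a fit of the 8 libraries, gave 226 higher and 61 lower (78.7% higher), and 33 of the 108 named genes fitted lost and 1 gained a call. Of the 854 higher and 219 lower genes, 214 and 57 kept their call, with 1 of 8 neutrophil and 0 of 9 T and NK cell markers. Deviations of same-numbered libraries correlated at 0.026, -0.022, 0.098 and 0.074. Of the 4 chronic 14 d libraries only replicate 3 correlated best with the healthy library of its number. These low correlations cannot exclude that same-numbered libraries shared a preparation.

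In 119 of the higher and 17 of the lower genes no library of the lower group had more than 3 counts, so their folds are bounds.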

Other observations

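The B cell sum after recovery (322 to 599 CPM) stood above that of every chronic 24 h library (88.6 to 223 CPM) and every chronic 72 h library (112 to 315 CPM). The macrophage sum was 1224 to 2476 CPM after recovery, against 1012 to 5606 CPM at 24 h and 1380 to 3640 CPM at 72 h. The overlap came from the higher-depth libraries, at 1012 to 1891 CPM and 1380 to 3028 CPM. The lower-depth libraries, at 4203 to 5606 CPM and 2641 to 3640 CPM, lay above every chronic 14 d library. The sum of sinusoidal endothelial markers was 350.03 to 641 CPM at 24 h, 577 to 899 CPM at 72 h and 1112 to 1518 CPM at 14 d, against 648 to 1431 CPM in healthy libraries. The sum of factors secreted by quiescent HSCs was 9520.3 to 12384 CPM at 24 h, 19823 to 21258 CPM at 72 h and 20151 to 25855 CPM at 14 d, against 32193 to 38761 CPM in healthy libraries. These sums were not tested.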
